A study of Mus musculus with 20 samples.

Results

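A set of epithelial and matrix integrins is described here in kidneys with and without *Pkd2*, the polycystin-2 gene whose loss causes polycystic kidney disease. The set was named as a list of 10 subunit genes, *Itga1*, *Itga2*, *Itga3*, *Itga5*, *Itga6*, *Itgav*, *Itgb1*, *Itgb4*, *Itgb6* and *Itgb8*, out of 24411 genes in the count table. All 10 had at least 1 count in every mouse and passed the filter on low counts in every comparison. The RNA came from whole kidneys of inbred C57BL/6 mice at P125. The 5 male and 5 female mutants carried Pkd2fl/fl with both Pax8rtTA and TetOCre, and the 5 male and 5 female controls carried Pkd2fl/fl but lacked Pax8rtTA or TetOCre. All 20 mice, controls included, were given doxycycline (DOX) at 50 mg/kg on each day from P27 to P29. Pax8rtTA drives the recombinase in renal tubule epithelium, so that glomerular, vascular and interstitial cells were not its target.

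Each mouse gave 1 library of 11307741 to 19324073 counts, and levels are given in CPM, counts scaled to a common library size after TMM normalisation. Mice are named by sex and genotype (MC and MM, male control and male mutant; FC and FM, female control and female mutant) with a number that serves only as a name. They came from 3 litters, A, B and C, spread unevenly over the groups, with 3 of the 5 male controls in litter A and 3 of the 5 female mutants in litter B. Library FM4 stood apart, with 14850 genes detected against 16776 to 17724 in the other 19 libraries, and 76 genes with exactly 1 count against 708 to 859. *Pkd2* was at 119 ± 9.87 CPM (SD, n = 5) in male mutants against 291 ± 31.1 in male controls, and at 145 ± 33.6 in female mutants against 257 ± 49.1 in female controls. Markers of proximal tubule, thick ascending limb and distal tubule, collecting duct and podocytes were all detected. In whole kidneys, fewer cells of a type and less RNA per cell cannot be told apart.

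Integrins are surface receptors of an α and a β subunit that tie the cytoskeleton to the matrix outside the cell. The β1 chain pairs with many α chains, among them the collagen receptor chains α1 and α2, the laminin receptor chains α3 and α6 and the fibronectin receptor chain α5, and in kidney tubules laminin receptors hold epithelial cells on their basement membrane. The α6 chain also pairs with β4, the integrin of hemidesmosomes, and αv pairs with β6 or β8 to bind latent TGF-β, the stored form of this cytokine.

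Sequences upstream of the gene starts are shown as a description, and whether they bear on the changes was not tested. RefSeq (GRCm38.p6) gave no window for *Itga6* and *Itgb4*, which rose in mutants. For the other 8 of the 10 genes it gave 10 windows of 250 bases before a start. Each was searched on both strands for the SP1 letters GGGCGG, the TEAD letters GGAATG and the AP-1 letters TGACTCA. The letters TATAAA were searched as a match to the TATA box. The stretches below run 5′ to 3′ with matches in capitals. They belong to 3 genes that rose in mutants and to *Itgb6*, which did not pass the test, and they end before any annotated transcript begins.
Itga3, chr11:95076802-95076964, minus strand: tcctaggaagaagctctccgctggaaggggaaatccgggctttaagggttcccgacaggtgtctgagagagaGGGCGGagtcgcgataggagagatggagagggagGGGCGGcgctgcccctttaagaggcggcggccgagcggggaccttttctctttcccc
Itga5, chr15:103366792-103367041, minus strand: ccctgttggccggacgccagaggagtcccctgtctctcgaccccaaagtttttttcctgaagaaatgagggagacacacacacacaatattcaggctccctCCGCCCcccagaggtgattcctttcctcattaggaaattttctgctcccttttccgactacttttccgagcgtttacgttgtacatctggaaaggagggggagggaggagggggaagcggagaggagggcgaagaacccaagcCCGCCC
Itgb1, chr8:128685404-128685653, plus strand: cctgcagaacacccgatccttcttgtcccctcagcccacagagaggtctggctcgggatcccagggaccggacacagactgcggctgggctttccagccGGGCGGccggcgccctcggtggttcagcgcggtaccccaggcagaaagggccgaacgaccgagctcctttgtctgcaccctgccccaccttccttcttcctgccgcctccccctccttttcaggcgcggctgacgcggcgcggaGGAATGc
Itgb6, chr2:60722644-60722853, minus strand: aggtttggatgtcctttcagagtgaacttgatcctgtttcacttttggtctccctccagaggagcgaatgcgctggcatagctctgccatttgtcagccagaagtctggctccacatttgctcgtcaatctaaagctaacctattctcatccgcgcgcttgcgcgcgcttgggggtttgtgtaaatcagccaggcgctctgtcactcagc

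The SP1 letters occurred 3 times in the full first window of *Itga3*, of which 2 lie in the stretch shown, 2 times in that of *Itga5* and 1 time in that of *Itgb1*. They were not found in the windows of *Itga1*, *Itga2*, *Itgav*, *Itgb6* and *Itgb8*, and 32.7% of all 32851 mouse windows of this length hold them. That share was not matched for GC content. The first windows of *Itga3*, *Itga5* and *Itgb1* held 67.6%, 55.6% and 68.0% G or C. Those of the genes without the letters held 52.0% to 64.4%, and the median of all windows was 52.4%. The TEAD letters stand near the 3′ end of the *Itgb1* stretch and are in 12.6% of all windows. No window of these genes held the AP-1 letters (4.46% of all windows) or the TATA letters (12.4%). A match describes letters and not a bound site.

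The 10 genes spanned a wide range of levels. Per kb of exon, *Itgb1*, the shared β chain, was highest in every group, at 83.9 CPM per kb in male controls and 98.2 in female controls. *Itgb6*, *Itgav* and *Itga6* followed, at 20.5, 18.1 and 11.5 CPM per kb in male controls and 25.9, 22.4 and 23.2 in female controls. The mice of *Itgb6* and *Itgav* overlapped in male controls, where *Itga6* lay apart below them, and in female controls *Itga6* overlapped with both. *Itga3* came next at 6.72 CPM per kb in male controls and 10.4 in female controls, ahead of *Itgb8* at 6.201 and 6.64 and of *Itga1* at 3.41 and 4.48. *Itga3* and *Itgb8* overlapped in male controls and not in female controls, and *Itgb8* and *Itga1* overlapped in both. *Itga5* was at 1.75 and 2.44 CPM per kb in male and female controls and *Itgb4* at 0.824 and 1.29. *Itga2* was lowest in every group, from 0.0538 CPM per kb in male controls to 0.327 in female mutants, and its counts per library ran from 1 to 115, which makes it the least precise of the set.

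**Figure D1:**
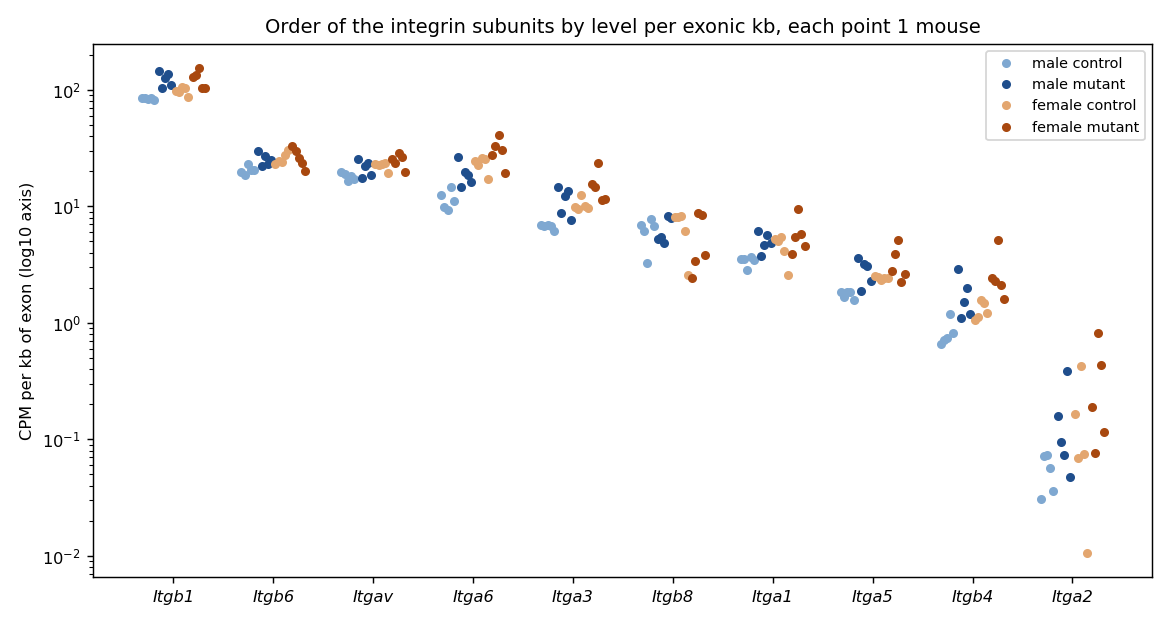
Level of each of the 10 integrin genes in CPM per kb of exon (log10 axis), each point 1 mouse, coloured by the 4 groups and ordered by the mean over 20 mice. *Itgb1* is highest at a mean of 107.8 CPM per kb and *Itga2* lowest at 0.171, and *Itgb6*, *Itgav* and *Itga6* lie together at 24.6, 21.7 and 21.0.

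Among the β chains that can pair with αv (β1, β3, β5, β6 and β8), *Itgb1* made up 57.4% ± 0.579 (SD, n = 5) of the summed per-kb level in male controls and 63.8% ± 2.35 in male mutants, and 55.8% ± 2.12 and 61.5% ± 3.31 in female controls and mutants. The lowest male mutant share, 60.9%, lay above the highest male control share, 58.3%, whereas the female groups overlapped. *Itgb5*, a gene outside the named set, made up 24.2% ± 0.583 in male controls and 19.5% ± 1.43 in male mutants. Its highest male mutant share, 21.3%, lay below its lowest male control share, 23.3%. In females *Itgb5* made up 25.4% ± 1.56 in controls and 22.5% ± 2.73 in mutants, and the groups overlapped. *Itgb6* made up 14.0% ± 1.19 in male controls and 13.1% ± 1.20 in male mutants. *Itgb8* made up 4.24% ± 1.17 and 3.30% ± 0.929 in the same groups. The male groups overlapped for *Itgb6* and for *Itgb8*. These are shares of mRNA and not of assembled receptors.

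With both sexes in 1 fit, mutants were compared with controls to ask which integrin genes changed after loss of *Pkd2*. The laminin receptor chains *Itga3*, *Itga6* and *Itgb4*, the fibronectin receptor chain *Itga5* and the common chain *Itgb1* were higher in mutants, by 1.36-fold for *Itgb1* to 2.06-fold for *Itgb4*. These 5 of the 10 passed an adjusted p of 0.01 in edgeR's quasi-likelihood test and none was called lower, while 9.82% of all 15355 tested genes were called higher. The median log2 change of the 10 was 0.49, against −0.01 over all tested genes. For 0 of the 10 did all 10 mutants lie above all 10 controls, as they did for 0.957% of tested genes. Without FM4, 6 of the 10 were called, the sixth being *Itga1* with an adjusted p of 0.00801. With FM3 and FM4 both left out, a choice made after the data were seen, 5 were called.

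**Figure D2:**
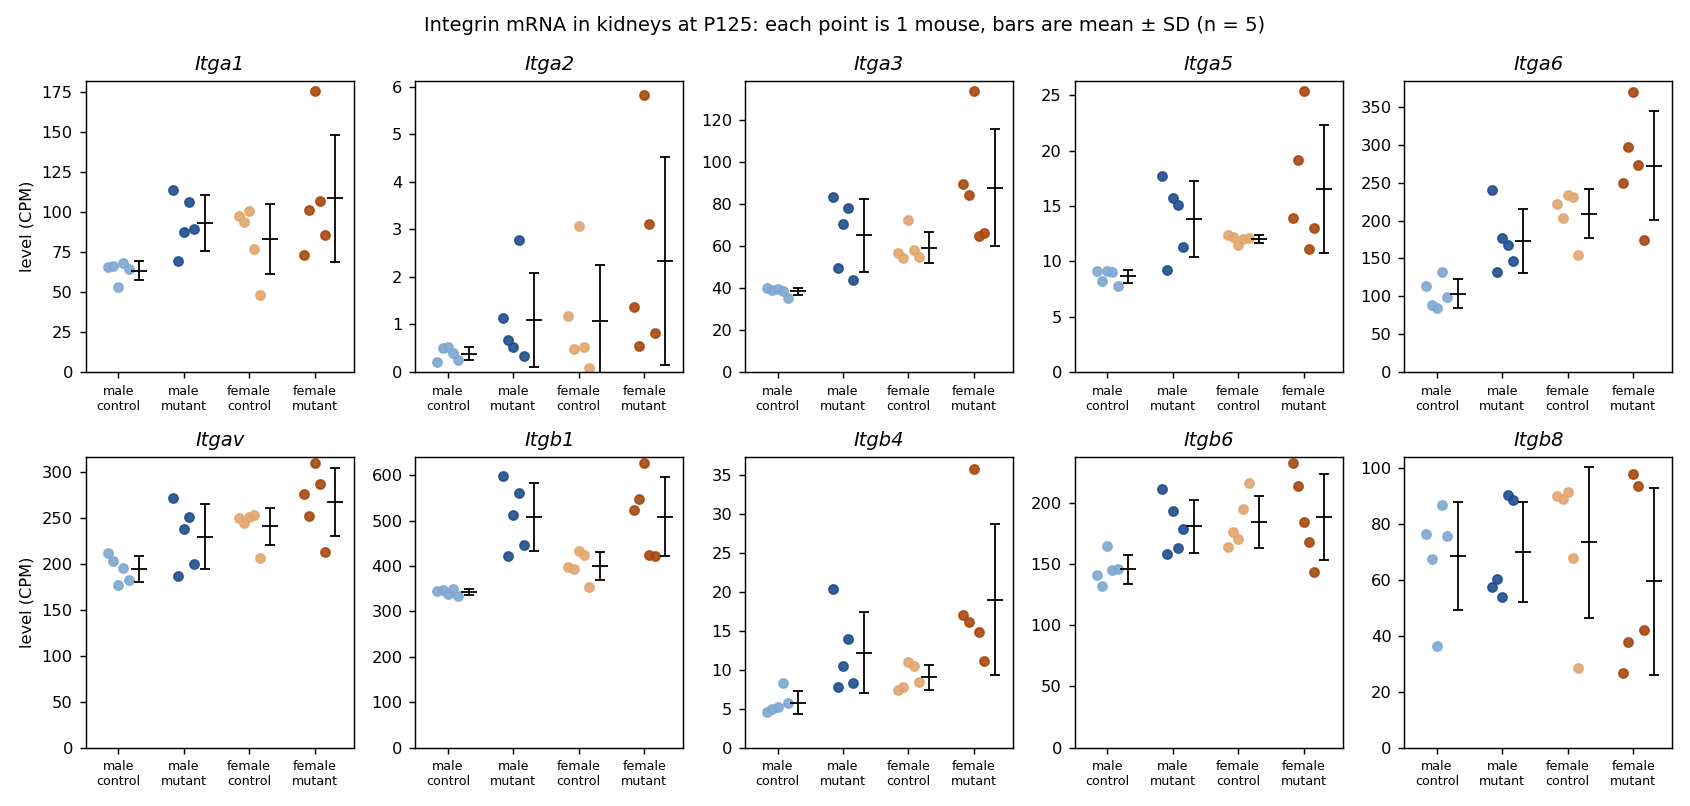
Level in CPM of each integrin gene in each mouse, in 4 groups of 5 mice, with the mean ± SD beside the points (the lower bar of *Itga2* in female controls is cut at 0). All 5 male mutants lie above all 5 male controls for *Itga1*, *Itga3*, *Itga5*, *Itga6* and *Itgb1*, and FM3 is the highest female for 9 of the 10 genes, *Itgb6* being the exception.

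*Itga3* encodes the α3 chain of a main laminin receptor of podocytes and tubule cells, and spans bases 95044474 to 95076801 of chromosome 11 (build GRCm38, as for all positions here). Its level was 39.8, 38.9, 39.4, 38.5 and 35.3 CPM in male controls 1 to 5 and 83.2, 49.6, 70.4, 78.0 and 43.9 in male mutants 1 to 5. In females it was 56.8, 54.1, 72.2, 58.0 and 54.8 in controls and 89.2, 84.4, 133.4, 64.7 and 66.2 in mutants. The male groups did not overlap, and in females the control FC3 exceeded the mutants FM4 and FM5. The log2 change over both sexes was 0.63 ± 0.12 (SE), or 1.55-fold with a 95% interval of 1.30 to 1.84 (adjusted p = 0.000763). It was positive in all 6 pairs of litter and sex, from 0.27 to 0.94. Such a pair is 1 mutant against 1 control in male litter C and female litters A and C, and 2 against 1 in male litter B. All 6 were positive for *Itga2* and *Itgav* too, which did not pass the test. The *Itga3* call held with any 1 of the 20 mice left out.

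*Itga6* encodes the α6 chain, which binds laminin with β1 or β4, and lies on chromosome 2 from 71745616 to 71858416. In males its level was 113, 88.4, 84.5, 132.1 and 99.8 CPM in controls and 241, 132.2, 177, 168 and 147 in mutants, so the male groups were separate but MC4 and MM2 nearly touched. In females it was 222, 203, 235, 231 and 155 in controls and 249, 297, 370.2, 273 and 174 in mutants. FM5 was the lowest female mutant and the only one inside the control range. It shares litter C with FC5, the lowest female control. The log2 change over both sexes was 0.53 ± 0.11 (1.45-fold, interval 1.23 to 1.70, adjusted p = 0.00160). It was positive in all 6 pairs of litter and sex, from 0.16 to 0.92, and was called with any 1 mouse left out.

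*Itgb4* lies on chromosome 11 from 115974709 to 116008412, and its product links laminin to intermediate filaments in hemidesmosomes. Male levels were 4.61, 4.96, 5.18, 8.36 and 5.79 CPM in controls and 20.4, 7.79, 10.6, 14.0 and 8.30 in mutants. Female levels were 7.45, 7.86, 11.03, 10.5 and 8.51 in controls and 17.1, 16.2, 35.8, 14.9 and 11.2 in mutants. In males the control MC4 lay above the mutants MM2 and MM5, and in females every mutant lay above every control, FM5 by little. The log2 change over both sexes was 1.04 ± 0.19 (2.06-fold, interval 1.55 to 2.73, adjusted p = 0.000675), the largest of the 5. Without FM3, the female mutant far above the others, it was 0.87 (adjusted p = 0.00113), and it was called with any 1 mouse left out. The ratio of *Itgb4* to *Itga6* per kb was 0.0719 ± 0.0115 (SD, n = 5) in male controls and 0.0883 ± 0.0182 in male mutants, and 0.0565 ± 0.0105 and 0.0872 ± 0.0223 in female controls and mutants. Exons of *Itgb4* share 537 bases with a gene on the opposite strand, and reads from that stretch cannot be told apart where counting does not use strand.

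*Itgb1* lies on chromosome 8 from 128685654 to 128733200 and had the smallest standard error of the 5. Male levels were 345, 347, 337, 349 and 334 CPM in controls and 598, 422, 512, 561 and 446 in mutants. The male controls differed among themselves by a CV of only 1.89%, and every male mutant was clear of them. Female levels were 398, 393, 432, 425 and 355 CPM in controls and 524, 547, 626, 425 and 422 in mutants, with FM4 and FM5 inside the control range. The log2 change over both sexes was 0.44 ± 0.08 (1.36-fold, interval 1.21 to 1.52, adjusted p = 0.000405). It was positive in all 6 pairs of litter and sex, from 0.25 to 0.62, and was called with any 1 mouse left out.

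*Itga5* encodes the α5 chain of the classical fibronectin receptor and lies on chromosome 15 from 103344286 to 103366763. Male levels were 9.15, 8.20, 9.09, 9.01 and 7.78 CPM in controls and 17.7, 9.23, 15.7, 15.1 and 11.3 in mutants. Female levels were 12.4, 12.2, 11.5, 12.0 and 12.1 in controls and 13.9, 19.2, 25.4, 11.1 and 12.99 in mutants. The male groups were separate, with MM2 just above MC1, and among females FM4 lay below all controls while the other 4 mutants lay above them. The log2 change over both sexes was 0.54 ± 0.14 (1.45-fold, interval 1.19 to 1.77, adjusted p = 0.00659). This call was the least stable of the 5. It held without FC1, FC5, MM2, FM1, FM4 or FM5, and was lost with any 1 of the other 14 mice left out, where the adjusted p rose to 0.0279 without MM1. The log2 change stayed between 0.44 and 0.60 throughout.

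The collagen receptor chains did not pass the test. *Itga1*, on chromosome 13 from 114953096 to 115101964, was at 63.4 ± 5.85 CPM (SD, n = 5) in male controls and 93.2 ± 17.3 in male mutants, and at 83.3 ± 21.9 and 108 ± 39.7 in female controls and mutants. Male mutants ran from 69.3 to 113 CPM and lay above all male controls, at 53.3 to 68.0, whereas the female groups overlapped widely, with FM3 at 175 CPM and the other female mutants at 73.2 to 107. The log2 change over both sexes was 0.46 ± 0.13 (interval 0.19 to 0.72, adjusted p = 0.0118). It passed the threshold without FC1, MM2, FM1, FM2 or FM4, with adjusted p from 0.00203 to 0.00916. Of the 6 other alternatives of the joint fit 2 also called it, with log2 changes from 0.37 to 0.47 over the 6. The exons of *Itga1* share 685 bases with another gene on the same strand.

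*Itga2*, the other collagen receptor chain, lies on chromosome 13 from 114833081 to 114932100. It had the largest log2 change of the 10, 1.20 ± 0.47, with an interval of 0.21 to 2.20 (adjusted p = 0.0697). Its means were 0.383 ± 0.141 CPM (SD, n = 5) in male controls, 1.09 ± 0.986 in male mutants, 1.07 ± 1.18 in female controls and 2.33 ± 2.19 in female mutants. FM3, FM4, FC3 and MM4 had 5.82, 3.11, 3.07 and 2.77 CPM and the other 16 mice at most 1.36, so that 1 control stood among the highest. Without FM3 and FM4 the log2 change was 0.67.

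The αv chain and its partners for latent TGF-β did not pass the test. *Itgav*, on chromosome 2 from 83724397 to 83806916, was at 194 ± 14.1 CPM in male controls and 229 ± 35.3 in male mutants, and at 241 ± 19.8 and 267 ± 37.0 in females, a log2 change of 0.18 ± 0.07 (interval 0.04 to 0.32, adjusted p = 0.0499). Its exons share 634 bases with a gene on the opposite strand. *Itgb6*, an epithelial β chain on chromosome 2 from 60598292 to 60722643, was at 146 ± 11.8 CPM in male controls and 181 ± 21.98 in male mutants, and at 184 ± 21.0 and 189 ± 35.3 in females, a log2 change of 0.16 ± 0.09 (interval −0.03 to 0.36, adjusted p = 0.214).

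*Itgb8*, on chromosome 12 from 119158022 to 119238802, had the only negative log2 change of the 10, −0.17 ± 0.21 (interval −0.60 to 0.26, adjusted p = 0.586). Its level was 76.6, 67.4, 36.4, 86.9 and 75.7 CPM in male controls and 57.6, 60.2, 53.8, 90.6 and 88.7 in male mutants. In females it was 90.1, 89.1, 91.6, 67.9 and 28.5 in controls and 26.9, 37.7, 97.8, 93.7 and 42.0 in mutants. The mice MC3, FC5, FM1, FM2 and FM5 lay between 26.9 and 42.0 CPM and the other 15 between 53.8 and 97.8, in a split that did not follow genotype, and the change was positive in 3 of the 6 pairs of litter and sex. Over the 20 mice Pearson's r of *Itgb8* was −0.01 with *Itgb1* and −0.49 with *Itgb6*, the lowest of the 45 pairs of the 10 genes, while *Itga3* and *Itgb4* had the highest, 0.94. These correlations are descriptions over mice that share litter, sex and genotype.

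**Figure D3:**
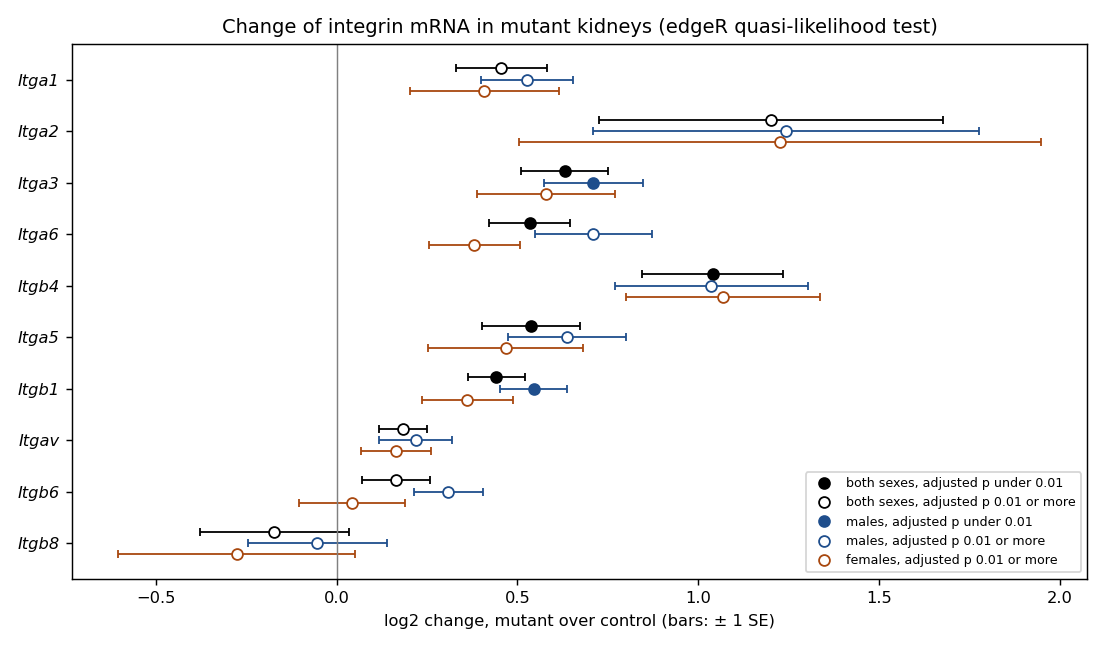
Log2 change of each integrin gene in mutants over controls, for both sexes in 1 fit, for males and for females, with bars of 1 SE and filled points at an adjusted p under 0.01. The 5 filled points of the joint fit lie between 0.44 and 1.04, 2 male points are filled and no female point is.

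Within males, *Itgb1* and *Itga3* were called higher in mutants, at log2 changes of 0.55 ± 0.09 (adjusted p = 0.00291) and 0.71 ± 0.14 (adjusted p = 0.00498). These 2 of 10 stand beside 5.22% of 14706 tested genes called higher. Groups were separate for *Itga1*, *Itga3*, *Itga5*, *Itga6* and *Itgb1*, 5 of 10, and for 8.74% of all tested genes with mutants above controls. *Itga6* (0.71 ± 0.16, adjusted p = 0.0108), *Itga1* (0.53 ± 0.13, adjusted p = 0.0142), *Itga5* (0.64 ± 0.16, adjusted p = 0.0182) and *Itgb4* (1.04 ± 0.27, adjusted p = 0.0189) missed the threshold by little. The number called ran from 0 without MC3 or MC4 to 6 without MM2, the male mutant of lowest relative kidney weight, and was 1 without MC1, MC2, MM3 or MM4. *Itga3* lost its call without any 1 of MC1, MC2, MC3, MC4, MM3 and MM4 (adjusted p from 0.0111 to 0.0385), and *Itgb1* without MC3 or MC4 (0.0103 and 0.0235).

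Within females, 0 of the 10 were called by edgeR's quasi-likelihood test, beside 0.441% of 15194 tested genes called higher. Of the 10, 4 had an unadjusted p under 0.05, as did 20.6% of all tested genes, and DESeq2's Wald test called 1, *Itgb4*. *Itgb4* alone separated the female groups, as 3.68% of tested genes did with mutants above controls, at a log2 change of 1.07 ± 0.27 (adjusted p = 0.0445). *Itga3* was at 0.58 ± 0.19, *Itga6* at 0.38 ± 0.13 and *Itgb1* at 0.36 ± 0.13, with adjusted p of 0.108, 0.108 and 0.125. Without FM4, *Itgb4*, *Itga3*, *Itga6* and *Itgb1* stood at 1.18, 0.69, 0.42 and 0.44 with adjusted p of 0.0144, 0.0218, 0.0482 and 0.0173, and still none of the 10 was called. Without FM3 the same 4 stood at 0.74, 0.37, 0.28 and 0.28.

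The difference between the male and the female change was itself tested. By edgeR, 0 of the 10 had a sex by genotype term with an adjusted p under 0.01 and 0 had an unadjusted p under 0.05, and DESeq2 called 0 of them. Over all 15355 tested genes edgeR called 0 (0%), with 650 at an unadjusted p under 0.05. The male change minus the female change was 0.36 for *Itga6* (95% interval −0.09 to 0.81), 0.22 for *Itgb1* (−0.10 to 0.53), 0.16 for *Itga3* (−0.35 to 0.68), 0.20 for *Itga5* (−0.38 to 0.78) and 0.00247 for *Itgb4* (−0.73 to 0.74). Each interval spans 0 and is too wide to show that the sexes changed alike.

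Males and females were also compared within each genotype. In controls *Itga6*, *Itga3* and *Itga5* were lower in males, at log2 differences of −0.86 ± 0.12, −0.56 ± 0.09 and −0.45 ± 0.10 (adjusted p = 0.000197, 0.000675 and 0.00514). These 3 of 10 stand beside 8.60% of 14760 tested genes called lower in males. All 5 male controls lay below all 5 female controls for these 3 and for *Itgb1*, 4 of 10, as they did for 13.7% of tested genes. *Itgb1* itself differed by −0.15 ± 0.07 (adjusted p = 0.108), *Itgav* by −0.26 ± 0.07 (adjusted p = 0.0221) and *Itgb6* by −0.28 ± 0.09 (adjusted p = 0.0327). The *Itga6* call held with any 1 of the 10 controls left out. *Itga3* lost its call without MC4 (adjusted p = 0.0122), and *Itga5* without any 1 of MC2, MC4, MC5, FC1 and FC5 (adjusted p from 0.0111 to 0.0374). With all 20 mice in 1 fit *Itga6* was called, and *Itga3* and *Itga5* were not (adjusted p = 0.0205 and 0.145). Markers of other cells moved with sex here. All 6 endothelial and all 5 podocyte markers were called lower in male controls, the endothelial sum running from 246 to 305 CPM in males and 345 to 435 in females and the podocyte sum from 245 to 379 and 473 to 613, with no marker at 0 in all mice of a group. Some tubule markers moved too. Of 5 thick ascending limb and distal tubule markers 4 were called lower in male controls. The list of 5 summed to 6378 to 6830 CPM in males and 8703 to 9778 in females. The 6 proximal tubule markers went both ways. Of these, 2 were called higher in male controls and 0 lower, and 3 had a positive log2 difference. Their median was −0.018, against −0.013 over all tested genes. Their sums, which weigh the most abundant markers most, were 9673 to 10578 CPM in males and 8172 to 8917 in females. The part of these cells in the difference was not tested.

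In mutants, edgeR called 0 of the 10 between the sexes, beside 1.69% of 15133 tested genes called lower in males, and DESeq2 called 0. *Itga6* was the 1 gene with an unadjusted p under 0.05, at −0.59 ± 0.19 (adjusted p = 0.0601), where 29.6% of all tested genes had one. With all 20 mice in 1 fit it was called (adjusted p = 0.00802). *Itga3* was at −0.40 ± 0.20, *Itgb4* at −0.59 ± 0.33 and *Itgb1* at 0.03 ± 0.14. *Itgb8* was at 0.52 ± 0.33 (adjusted p = 0.325), and without FM3 and FM4 it was called higher in males, at 1.05 (adjusted p = 0.00191). The female mutants that remain there, FM1, FM2 and FM5, are the 3 at 26.9 to 42.0 CPM.

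Relative kidney weight (KBW), kidney weight as a percentage of body weight, tracks cystic growth. It was 2.15, 1.22, 1.79, 1.54 and 1.71% in male mutants 1 to 5 and 1.38, 1.24, 1.46, 0.836 and 1.00% in female mutants 1 to 5. Among male mutants MM1, of highest KBW, had the highest *Itga3*, *Itga5*, *Itga6*, *Itgb1* and *Itgb4*. MM2, of lowest KBW, had the lowest *Itga5*, *Itga6*, *Itgb1* and *Itgb4*. Among female mutants FM3, of highest KBW, was highest for the same 5 genes, and FM4, of lowest KBW, was lowest for *Itga3* and *Itga5*. By kidney weight alone FM1 was the heaviest, at 346.1 mg against 302 mg in FM3. Female mutants had lower KBW than male mutants on average (1.18% ± 0.261 against 1.68% ± 0.338, SD, n = 5). Their mean levels were higher for 9 of the 10 genes, all but *Itgb8*, though *Itgb1* was nearly equal at 508.7 and 507.8 CPM. Sex was kept as a covariate, since the sexes differed in KBW.

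With that covariate, 9 of the 10 slopes on KBW over the 10 mutants were positive. The slope in log2 level per percentage point was 1.49 ± 0.43 for *Itgb4*, 1.14 ± 0.32 for *Itga5*, 0.96 ± 0.31 for *Itga3*, 0.82 ± 0.28 for *Itga6*, 0.59 ± 0.20 for *Itgb1* and 0.54 ± 0.19 for *Itgb6*. These 6 had an unadjusted p under 0.05, as did 11.5% of all 14865 tested genes with a positive slope. None of the 10 passed an adjusted p of 0.01 in edgeR, where *Itga5* was lowest at 0.0728, or in DESeq2, and edgeR called 0 of all tested genes (0%). *Itgb8* had a slope of −0.34 ± 0.61. Without sex as a covariate the slopes were 0.27 for *Itgb4*, 0.39 for *Itga5*, 0.16 for *Itga3* and −0.15 for *Itga6*.

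Pooled over the sexes, Pearson's r of log2 CPM with KBW was highest for *Itgb1*, at 0.59 (permutation test, two-sided p = 0.0725, adjusted over 14865 genes 0.378, n = 10), with Spearman's rho of 0.59 (permutation p = 0.0806, adjusted 0.459). Without MM1 and FM4, whose KBW lay farthest from the median of 1.42%, r was 0.32. Leaving them out also narrows the range of KBW, which by itself can lower r, so this value cannot show what the first r rests on. The other 9 genes had r from −0.21 to 0.46, with adjusted permutation p of at least 0.522. No correlation was computed within a sex, which holds 5 mutants, and the slopes with sex as a covariate describe the relation within the sexes.

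**Figure D4:**
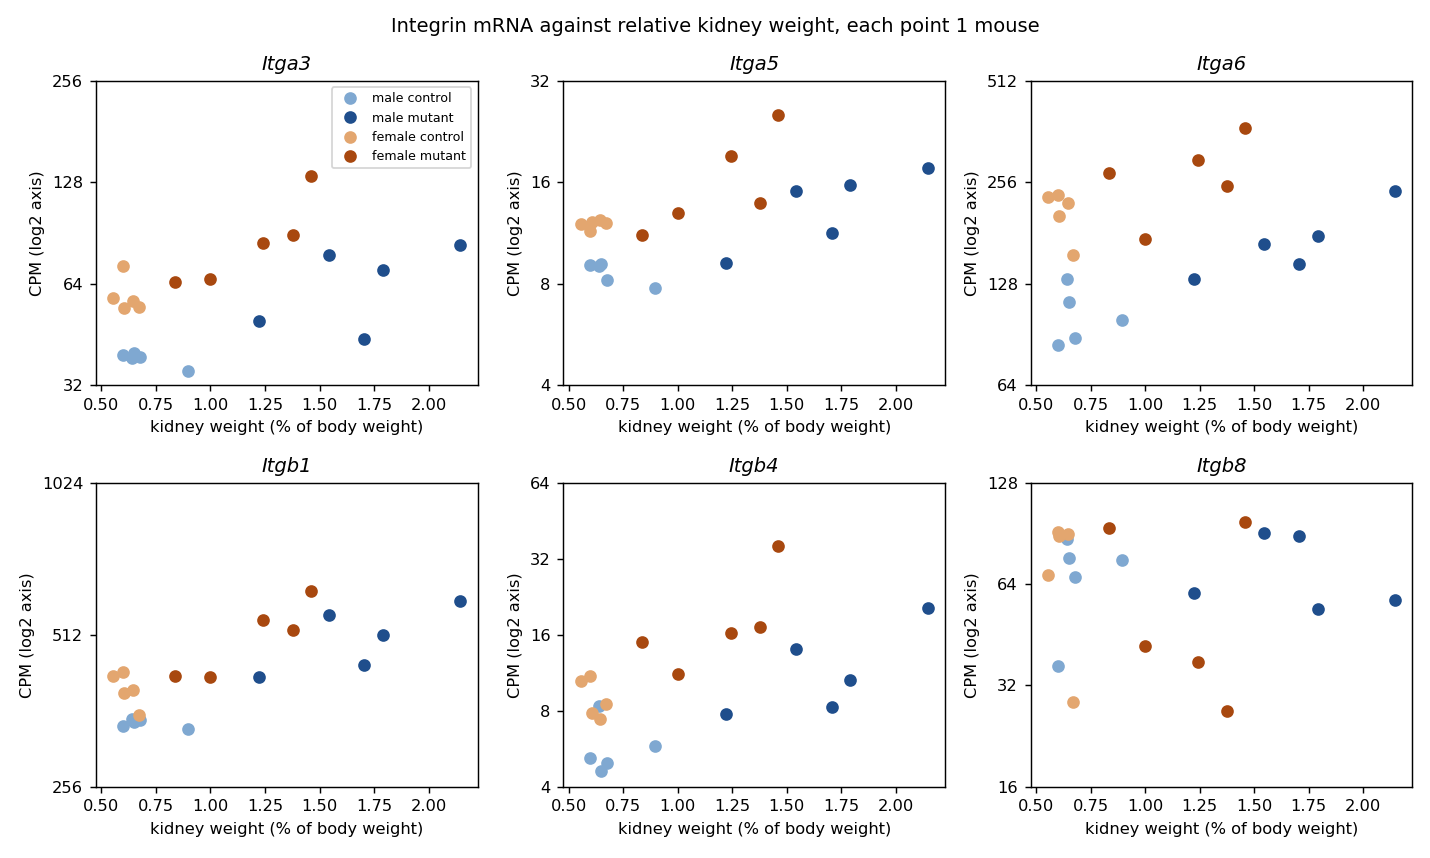
Level in CPM (log2 axis) of 6 integrin genes against kidney weight as a percentage of body weight, each point 1 mouse of 4 groups. Within each sex the mutant of highest relative kidney weight, MM1 at 2.15% and FM3 at 1.46%, has the highest *Itga3*, *Itga5*, *Itga6*, *Itgb1* and *Itgb4*. *Itgb8* spreads from 26.9 to 97.8 CPM.

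The genes most like the called integrins over the 20 mice were found by Pearson's r of log2 CPM among all tested genes. For *Itgb1* they were the basement membrane collagen *Col4a1* (r = 0.98), the fibrillar collagen *Col1a1* (0.98) and the tropomyosin *Tpm4* (0.97). For *Itga3* they were *Mrc2*, a receptor that takes up collagen (0.98), the receptor kinase *Axl* (0.98) and *Ehd2* (0.98). For *Itgb4* they were *Aldh18a1*, an enzyme of proline synthesis (0.97), fibronectin *Fn1* (0.95) and tenascin-C *Tnc* (0.95). *Itga5* was most like *Timp2*, an inhibitor of matrix proteases (0.95), *Col5a1* (0.95) and *Ehd2* (0.95), and *Itga6* most like *Cdh6*, a cadherin of developing tubules (0.96), *Wipf1* (0.94) and *Twsg1* (0.94). Without FM4 these 15 values lay between 0.94 and 0.98. They describe mice that share sex, genotype and litter, and a common group difference alone makes such values high.

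The ligands of these receptors were counted from lists named by family. Of 12 collagen chains tested, 5 were called higher in mutants in the joint fit and 0 lower, with a median log2 change of 0.51. They were *Col4a2* (0.75 ± 0.14) and *Col4a1* (0.87 ± 0.15) of the basement membrane and *Col1a2* (1.22 ± 0.20), *Col1a1* (2.04 ± 0.26) and *Col3a1* (2.19 ± 0.24) of fibrillar collagen. *Col3a1* went from 47.1 ± 10.5 to 242 ± 121 CPM in males and from 62.0 ± 20.7 to 276 ± 168 in females (SD, n = 5). Of 11 laminin chains, 2 were called higher and 0 lower, with a median of 0.21, and *Lamc1*, the more abundant of them, was at 0.66 ± 0.11.

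Ligands of α5 and αv integrins, many with an RGD motif, had the largest median of the ligand lists, 1.00, with 6 of 11 tested genes called higher and 0 lower. They ran from *Ctgf* (0.80 ± 0.10) to osteopontin *Spp1* (1.76 ± 0.27), the most abundant. *Fn1*, the ligand of α5, was among them (1.58 ± 0.24), going from 24.8 ± 2.21 to 97.4 ± 46.5 CPM in males and from 55.3 ± 9.87 to 137 ± 89.5 in females. Of 11 genes for TGF-β, its receptors and proteins of families related to its latent form, 5 were called higher and 0 lower, with a median of 0.48. The smallest change was that of the receptor *Tgfbr2* (0.66 ± 0.11), the most abundant of the 5. The largest was that of *Ltbp2*, of the latent TGF-β binding protein family (5.03 ± 0.46), which went from 0.242 ± 0.0750 to 7.37 ± 5.58 CPM in males and from 0.288 ± 0.135 to 10.7 ± 8.14 in females. *Tgfb1* (0.74 ± 0.15), *Nrros* (0.86 ± 0.21) and *Tgfb3* (1.19 ± 0.26) were the other 3.

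On the cytoplasmic side, 4 of 23 activators and adhesion plaque genes were called higher and 0 lower, with a median of 0.06. These were *Zyx* (0.37 ± 0.07), *Vcl* (0.52 ± 0.10), the most abundant of the 4, *Actn1* (0.79 ± 0.13) and *Fermt3* (0.87 ± 0.19), the kindlin of blood cells. Of 6 hemidesmosome and tetraspanin genes *Col17a1* alone was called (1.98 ± 0.44), at means of 0.119 CPM in male controls and 1.10 in male mutants. Of the 16 other integrin subunits 15 were tested, and 5 were called higher and 0 lower, with a median of 0.54. They were *Itga9* (0.54 ± 0.12), the most abundant, *Itga11* (2.03 ± 0.40) and the leukocyte chains *Itgb2* (1.16 ± 0.26), *Itgax* (1.73 ± 0.21) and *Itgam* (2.35 ± 0.35). All these counts stand beside the 9.82% of tested genes called higher.

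**Figure D5:**
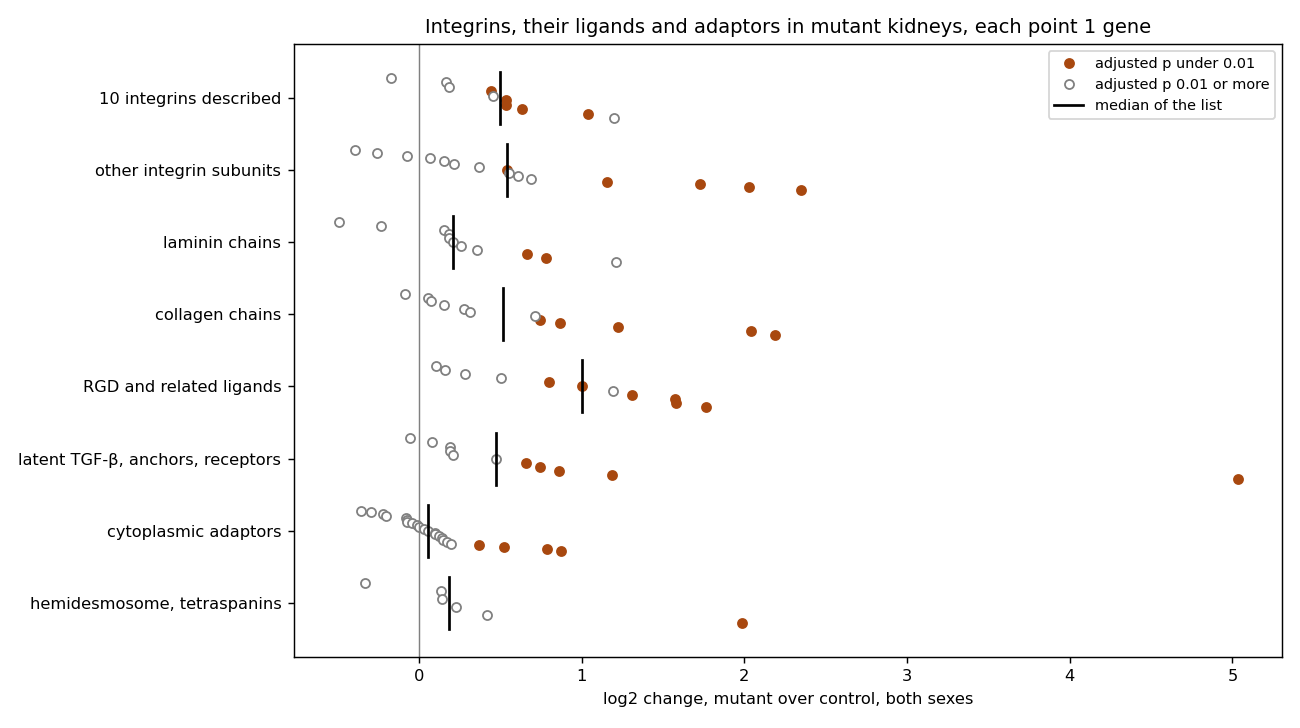
Log2 change in mutants over controls, both sexes in 1 fit, of each gene in 8 lists, with filled points at an adjusted p under 0.01 and a line at each list's median. The medians run from 0.06 for the cytoplasmic adaptors to 1.00 for the ligands of α5 and αv integrins, with the 10 integrins at 0.49, and *Ltbp2* stands apart at 5.03.

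Markers of other cells and of injury moved with these genes. All 6 macrophage markers, 3 of 6 fibroblast markers and all 6 injured tubule markers were called higher in mutants, the last from *Krt8* (0.57 ± 0.10) to *Havcr1* (6.33 ± 0.56). The macrophage sum ran from 94.9 to 109 CPM in male controls, 138 to 327 in male mutants, 121 to 153 in female controls and 124.7 to 458 in female mutants. In the same order the fibroblast sum ran from 168 to 202, 215 to 486, 217 to 289 and 233 to 616 CPM, and the injured tubule sum from 139 to 158, 238 to 924, 133 to 168 and 211 to 731. MM1 and FM3 were the highest male and female mutant in all 3 sums, as they were for the 5 called integrins, and FM4 was the lowest female mutant in all 3. Of 5 thick ascending limb and distal tubule markers 4 were called lower in mutants, as were 4 of 6 collecting duct markers and 4 of 5 podocyte markers. Beside these, 2364 of all 15355 tested genes were called in either direction, 1508 of them higher and the rest lower. None of 6 proximal tubule, 6 endothelial and 4 T cell markers was called. No marker was at 0 in all mice of a group, and the part of these cells in the levels of the integrins was not tested.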

How the data were processed

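Whole-kidney RNA of 20 mice was sequenced, and the authors deposited raw counts per gene, made from reads trimmed with fastp 0.23.2 and aligned with STAR 2.7.10b to mm10 (per the labels and methods). The counting tool, annotation and strandedness are not given in the sources used here. Groups, litters and weights came from the labels, and the study based KBW on 1 kidney per mouse. The 10 genes and all lists were chosen with earlier results of these data known.

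Counts were tested with edgeR 4.0.16 (R 4.3.3): TMM scaling, filterByExpr, quasi-likelihood F test, Benjamini-Hochberg adjustment over all tested genes, called at an adjusted p under 0.01. Every result across genes carries this test unless another is named. The terms were sex and litter in 6 groups plus genotype (joint fit and sex by genotype term), litter within a sex or genotype, and sex for the slope on KBW. The SE is the log2 change over the square root of F. Log2 CPM for correlations used a prior count of 2, and permutation p-values used 100000 resamples. The fits were tested on simulated data. Exonic kb and coordinates are from GENCODE vM21 (GRCm38). Each mouse is 1 sample of its group. The F test sets a difference or slope against the spread between mice that the other terms of the fit leave.

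All 10 genes were tested in each comparison, and values of all 10 are given for the joint fit. For the other comparisons the text gives values of some of the 10. From each list the called genes with the lowest and highest change and the most abundant one were named by rule, as were the 3 most similar genes for each called integrin. Other list genes were named after their values were seen, and 1 list gene is not reported here. Alternatives were DESeq2 1.42.0 (Wald test, size factors), other count filters, no litter term, all 20 mice in 1 fit, other covariates for the slope, and leaving out each mouse.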

Additional observations from a re-analysis of the deposited data

Results flagged for a closer look

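Each of the 10 genes was checked in each of the 4 groups for a mouse far from the other 4 (Dixon's test at the 95% level), and 4 of these 40 groups held one, where chance gives about 1 in 20. *Itgb4* in female mutants was 35.8 CPM in FM3 against 11.2 to 17.1 in the others. *Itga3* in female controls was 72.2 CPM in FC3 against 54.1 to 58.0. *Itga1* in male controls was 53.3 CPM in MC3 against 64.1 to 68.0. *Itgav* in female controls was 206 CPM in FC5 against 244 to 254.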

How the results depend on the processing

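No paired analysis was possible because the labels give no replicate numbers that pair single mice across groups. Litter, which they do give, was a term in the fits of the groups. Of the log2 values of the 10 genes over all comparisons with a mouse left out, 811 kept their direction and side of the threshold, 28 lost a call, 11 gained one and 47 changed sign. Under the other alternatives 410 kept both, 2 lost a call, 16 gained one and 13 changed sign. The causes were not tested.

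In the joint fit the 2364 genes called ran from 2002 to 3143 over 6 alternatives, and the integrins called from 5 to 6. These 6 include FM3 and FM4 both left out. In males, DESeq2's Wald test called 2054 genes in place of 1228 and 6 of the 10 integrins in place of 2, which were 5 without a filter and 4 without litter. In females the 93 genes called became 955 with DESeq2 (1 integrin in place of 0), 230 without a filter, 172 without litter, 865 with all 20 mice in 1 fit and 527 without FM3 and FM4, an alternative chosen after seeing the data. Between the sexes, all 20 mice in 1 fit called 1 integrin in place of 3 in controls and 1 in place of 0 in mutants. In mutants the 783 genes became 1942 with DESeq2, 2339 with all 20 mice and 1890 without FM3 and FM4 (1 integrin in place of 0). The 0 genes with a sex by genotype term became 18 with DESeq2, 2 without a filter, 1 with at least 10 counts in every mouse and 2 without FM3 and FM4. The 0 genes with a slope on KBW became 579 with DESeq2 and 10 with sex and litter.

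With each mouse left out, genes called ran from 1731 to 3189 in the joint fit (4 to 6 integrins), 195 to 1928 in males (0 to 6), 3 to 906 in females (906 without FM4), 1214 to 2654 between control sexes (1 to 4) and 248 to 1347 between mutant sexes. They ran from 0 to 3 for the sex by genotype term and 0 to 47 for the slope (47 without MM5).

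*Itgb8* was 0.0245 in males and −0.0611 between control sexes without litter. The sex by genotype term of *Itgb4* was −0.0359 with DESeq2's size factors, −0.0323 in DESeq2 and −0.0236 with at least 10 counts, and that of *Itga2* was −0.0905 in DESeq2. Without a covariate the slopes were −0.68 for *Itga2*, −0.15 for *Itga6* and 0.0339 for *Itgb8*. Without FM3 and FM4 the mutant sexes differed by 0.11 in *Itga1*, 0.00119 in *Itga2* and −0.00174 in *Itgb1*, and the slope of *Itga2* was −0.0265.

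With each mouse left out, *Itgb8* ran from −0.17 to 0.0408 in males, −0.49 to 0.0641 in females and −0.22 to 0.65 between control sexes, and *Itgb6* from −0.0928 to 0.19 in females. Between mutant sexes *Itga1* ran from −0.26 to 0.0659, *Itgb1* from −0.0295 to 0.0824 and *Itgb6* from −0.15 to 0.0392. The sex by genotype term ran from −0.0701 to 0.34 for *Itga1*, −0.78 to 0.60 for *Itga2*, −0.0747 to 0.37 for *Itga3*, −0.0617 to 0.40 for *Itga5*, −0.0810 to 0.19 for *Itgav*, −0.52 to 0.33 for *Itgb4* and −0.0769 to 0.47 for *Itgb8*. The slope ran from −1.02 to 1.30 for *Itga2* and −1.13 to 0.27 for *Itgb8*. Depth limits *Itga2* most, with 1 to 115 counts per library.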
